A study of Mus musculus with 12 samples.

Results

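The genes described here carry mouse symbols made of Gpr and a number, the names under which most orphan G protein-coupled receptors are listed. Such symbols belonged to 70 of the 24531 genes in the deposited files. Results are given for 66 of them, of which 48 had a mean level of at least 0.1 FPKM (reads scaled for transcript length and library size, so that levels of different genes can be compared). RNA was measured in basolateral (BLA) and central (CeA) amygdala of male wild-type mice of the strains 129S1/SvImJ (S1) and C57BL/6 (B6). The mice were naive, had undergone fear conditioning (FC) or had gone on to fear extinction (Ext). The design text asks which genes go with the poor fear extinction of S1 mice, and it speaks of CEm tissue where the sample labels say CeA. With 12 libraries in all, each strain had a single library per region and condition, no allele or drug was involved, and the labels give neither ages nor the number of mice behind a library.

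G protein-coupled receptors sit in the cell membrane and switch on heterotrimeric G proteins, and a receptor is called an orphan while its natural ligand is unknown or disputed. Receptors that couple to Gs raise cyclic AMP, those that couple to Gi lower it, and RGS proteins shorten the G protein signal. In the amygdala, the BLA is built like cortex, with mostly glutamatergic neurons, and the CeA like striatum, with mostly GABAergic neurons.

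The symbol rule did not keep strictly to orphans. It included receptors whose ligands have since been proposed or assigned, among them Gpr183 (oxysterols), Gpr1 (chemerin) and the proton sensors Gpr4, Gpr65 and Gpr132. It also included proteins that are not classical receptors of the cell surface, such as Gpr89 and Gpr107 of the Golgi apparatus and Gpr155 of the lysosome. Adhesion receptors that once had Gpr symbols were absent from the tables under those symbols, 0 of 18 listed.

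Total counts were 42224899 to 61695302 per library, so that 3 counts, the limit that a count of 0 allows, were 0.0486 to 0.0711 CPM (counts scaled to library size). Such limits and the intervals given below cover counting error only. Markers went with the labelled regions: 8 of 8 BLA excitatory neuron markers were higher in BLA and 8 of 8 CeA markers lower. The B6 naive CeA library stood apart in the summed BLA markers, with 653.9 CPM against 376.5 to 468 CPM in the other 5 CeA libraries. The S1 Ext BLA library had 813.5 CPM of 8 summed striatal markers against 426.3 to 617.6 CPM in the other 5 BLA libraries, and the S1 FC CeA library had 2735 CPM against 3421 to 3855 CPM in the other 5 CeA libraries. Fewer cells of a type and less RNA per cell cannot be told apart in such bulk samples.

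Mean levels of the 48 genes ranged over 0.138 to 59.2 FPKM. Over both regions together, Gpr162, a little studied receptor of neurons, had the highest mean level, 59.2 FPKM, followed by Gpr137, a lysosomal membrane protein, at 52.6 FPKM. Next came Gpr83, for which the neuropeptide PEN has been proposed as ligand, at 31.6 FPKM, Gpr158, a class C receptor that binds RGS7, at 19.4 FPKM, and Gpr155 at 16.3 FPKM. In CeA alone the order of medians was another, with 49.9 FPKM for Gpr83 (42.7 to 54.2 FPKM), 40.4 FPKM for Gpr137 (35.5 to 44.6 FPKM) and 39.9 FPKM for Gpr162 (37.1 to 48.1 FPKM). These ranges overlapped. Before extinction Gpr83 lay above the others in every CeA library. In the S1 and B6 Ext CeA libraries Gpr162, at 46.4 and 48.1 FPKM, lay above Gpr83, at 44.6 and 42.7 FPKM. Gpr17, a receptor of maturing oligodendrocytes, averaged 14.3 FPKM, Gpr22 13.5 FPKM, Gpr6 12.9 FPKM, Gpr85 12.6 FPKM and Gpr52 11.8 FPKM. In all, 14 genes averaged at least 10 FPKM and 36 at least 1 FPKM.

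**Figure D1:**
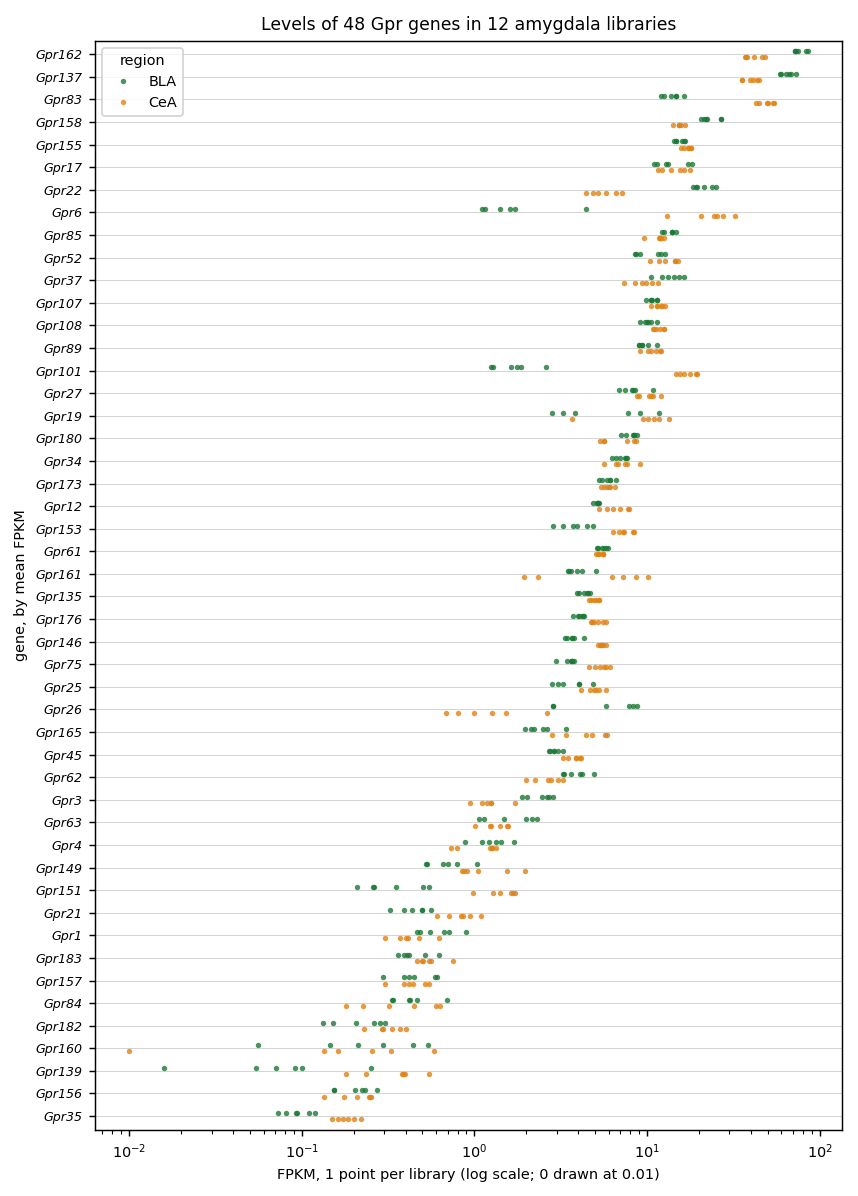
FPKM (log scale) of the 48 described genes, 1 point per library, with BLA points above CeA points in each row and genes ordered by mean level. Gpr6, Gpr101 and Gpr151 show CeA points to the right of BLA points, and Gpr22 and Gpr26 the reverse.

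Many levels barely moved over the 12 libraries. Gpr61 ranged over 5.09 to 5.91 FPKM and Gpr173, a member of the SREB family of receptors conserved across vertebrates, over 5.26 to 6.59 FPKM. Gpr107 ranged over 9.86 to 12.8 FPKM. Gpr19, by contrast, ranged over 2.8 to 13.4 FPKM and Gpr161 over 1.94 to 10.1 FPKM, and the spread of both within a region and strain is taken up below with their transcripts.

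The other 18 genes fell under the minimum, and 1 of these, Gpr33, had no count in any library. The rest were Gpr20, Gpr39, Gpr65, Gpr179, Gpr55, Gpr50, Gpr152, Gpr174, Gpr132, Gpr82, Gpr15, Gpr143, Gpr141, Gpr18, Gpr171, Gpr142 and Gpr119, with at most 30 counts in a library. Just inside the minimum stood Gpr35, with a mean of 0.138 FPKM, and just outside it Gpr20, with 0.0932 FPKM, and Gpr39, with 0.0895 FPKM. Several of these low genes, such as Gpr65, Gpr132, Gpr171 and Gpr174, are known from immune cells. In the naive and FC libraries 52 genes passed the filter on low counts, all 48 described ones and 4 others.

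The regional comparison asked which receptors separate the cortex-like from the striatum-like part of the amygdala. Before extinction, Gpr6, Gpr101, Gpr151 and Gpr83 were lower in BLA than in CeA by log2 fold changes of −1.78 to −3.84, and Gpr26 and Gpr22 were higher by 1.98 to 2.36. Of 52 receptor genes, 11 were higher and 13 lower at an adjusted p under 0.05 (edgeR's quasi-likelihood F test, Benjamini-Hochberg adjustment over 16274 genes). That is 46.2% of them, against 46.6% of all genes tested, of which 23.2% were higher and 23.4% lower. The median log2 fold change was −0.11 over the 52 and −0.01 over all genes, so the share of receptors called was near the background. The 13 include Gpr174, below the level minimum, which passed the filter on low counts through CeA libraries alone, so that the filter fixed its direction. Of the 48 described genes 11 were higher and 12 lower. Each group is 1 library, and the p-values therefore measure spread around an additive model of these 8 libraries, not spread between mice.

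Among the receptors known from striatal or medium spiny neurons, Gpr6 differed most. Gpr6 is constitutively active, couples to Gs and is known from the striatal neurons that carry the D2 dopamine receptor. In BLA it had 1.15, 1.61, 1.4 and 1.1 FPKM in the S1 naive, S1 FC, B6 naive and B6 FC libraries, an order kept below, and in CeA 20.6, 13.1, 25.3 and 24.5 FPKM. The groups did not overlap, and the lowest CeA value, in the S1 FC library, was that of the library with the fewest striatal marker counts. The log2 fold change was −3.84 ± 0.21 (standard error, SE; edgeR adjusted p = 5.15e-06), a 14.3-fold difference.

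Gpr101, a Gs-coupled receptor whose duplication in humans causes acrogigantism, had 1.25, 2.59, 1.77 and 1.63 FPKM in BLA and 16.3, 19.6, 14.8 and 15.6 FPKM in CeA. It was lower in BLA by a log2 fold change of −3.1 ± 0.17, and the S1 FC library held the highest value of each region. Gpr83 had 14.8, 14.8, 12.6 and 13.8 FPKM in BLA and 54.2, 49.9, 50 and 53.4 FPKM in CeA (−1.78 ± 0.06). Gpr83 was thus well detected in BLA too, and none of these 3 genes overlapped between the regions. Gpr149 was lower as well, with 0.526, 0.655, 0.704 and 0.53 FPKM in BLA and 0.911, 0.866, 1.55 and 1.97 FPKM in CeA (−0.96 ± 0.22, edgeR adjusted p = 0.00806).

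The remaining receptors of that list did not pass the test. Gpr52, a Gs-coupled receptor of striatal neurons, gave −0.13 ± 0.14 (edgeR adjusted p = 0.492), and Gpr139, a receptor known from the habenula, −1.18 ± 0.57 (edgeR adjusted p = 0.125) at 0.054 to 0.253 FPKM in BLA and 0.18 to 0.398 FPKM in CeA. The list was drawn up with earlier results of these data known, and Gpr6 and the others are in it because of where they are known to be expressed. Of the 8 striatal markers, which do not include these receptors, 7 were also lower in BLA, with a median log2 fold change of −2.6, and the part of striatal tissue in these values was not tested.

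Outside the striatal list, Gpr151, known from axons of habenular neurons, had 0.263, 0.258, 0.21 and 0.352 FPKM in BLA and 1.41, 0.985, 1.73 and 1.29 FPKM in CeA (−2.17 ± 0.25). Smaller deficits in BLA were those of Gpr153 (−0.8 ± 0.12), Gpr21 (−0.8 ± 0.22), Gpr25 (−0.51 ± 0.1), Gpr165 (−0.48 ± 0.15), Gpr146 (−0.43 ± 0.09), Gpr75 (−0.4 ± 0.07) and Gpr27 (−0.27 ± 0.08). Gpr21 lost its call without the B6 FC CeA library (−0.71, edgeR adjusted p = 0.0599, with 0.0179 to 0.0599 over its alternatives), and it shares exon bases with Rabgap1 on the same strand. Gpr165 lost its regional call in 4 of the 8 fits that left out 1 library, each time without an FC library, with edgeR adjusted p of 0.0649 to 0.085 in those fits. Gpr174, a lymphocyte receptor, had 0 counts in all 4 BLA libraries and 38 in the 4 CeA libraries together, and no regional difference is read from it.

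Higher in BLA was first Gpr26, a constitutively active receptor of brain, with 8.78, 8.25, 7.82 and 5.77 FPKM in BLA and 1.27, 2.65, 1.53 and 1 FPKM in CeA (2.36 ± 0.24, edgeR adjusted p = 0.000116). Gpr22, an orphan of heart and brain, had 25.1, 23.9, 19.3 and 21.3 FPKM in BLA and 5.75, 6.58, 7.12 and 4.87 FPKM in CeA (1.98 ± 0.12). Neither overlapped between the regions. The CeA library with the most BLA marker counts, B6 naive with 653.9 CPM, was highest in CeA for Gpr22. Gpr26 was highest in the S1 FC library, which came next in BLA marker counts with 468 CPM. The part of BLA tissue in the CeA values was not tested.

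Gpr162 had 73.3, 71.8, 75.1 and 72 FPKM in BLA and 37.3, 38, 41.8 and 37.1 FPKM in CeA (1.03 ± 0.05). Gpr3, the relative of Gpr6 that also raises cyclic AMP without a ligand, went the other way from Gpr6, with 1.89, 2.01, 2.48 and 2.87 FPKM in BLA and 0.94, 1.11, 1.19 and 1.72 FPKM in CeA (1.01 ± 0.12, edgeR adjusted p = 0.000241). The third constitutively active receptor of that family, Gpr12, gave −0.18 ± 0.09 and did not pass (edgeR adjusted p = 0.148). Further genes higher in BLA were Gpr137 (0.8 ± 0.05), Gpr158 (0.77 ± 0.06), Gpr63 (0.68 ± 0.12), Gpr37 (0.66 ± 0.1), Gpr62 (0.57 ± 0.13), Gpr85 (0.34 ± 0.07) and Gpr180 (0.29 ± 0.09).

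Gpr37 and Gpr62 belong to the oligodendrocyte lineage, and 10 of 10 oligodendrocyte markers were higher in BLA too, with a median log2 fold change of 0.62. Their summed level was 3037 to 4811 CPM in BLA and 1716 to 3418 CPM in CeA, and its part in the values of Gpr37 and Gpr62 was not tested. The third receptor of the lineage, Gpr17, gave 0.15 ± 0.11 (edgeR adjusted p = 0.306). In the SREB family Gpr85 was higher, Gpr27 lower and Gpr173 not past the test (0.19 ± 0.08, edgeR adjusted p = 0.0857).

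Without any overlap between the libraries before extinction, 9 of the 52 genes tested lay above in BLA, against 18.6% of all genes, and 14, Gpr174 among them, lay below, against 18.1%. Of the microglial and immune receptors that were described, Gpr34, Gpr84, Gpr183, Gpr160 and Gpr35, none passed the regional test. Gpr35 (−0.65 ± 0.28) and Gpr183 (−0.37 ± 0.2) were nevertheless among the 14 below without overlap. Gpr84 (0.13 ± 0.34) and Gpr160 (0.43 ± 0.67) had the opposite sign. Gpr34, a lysophosphatidylserine receptor of microglia, gave 0.02 ± 0.07.

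**Figure D2:**
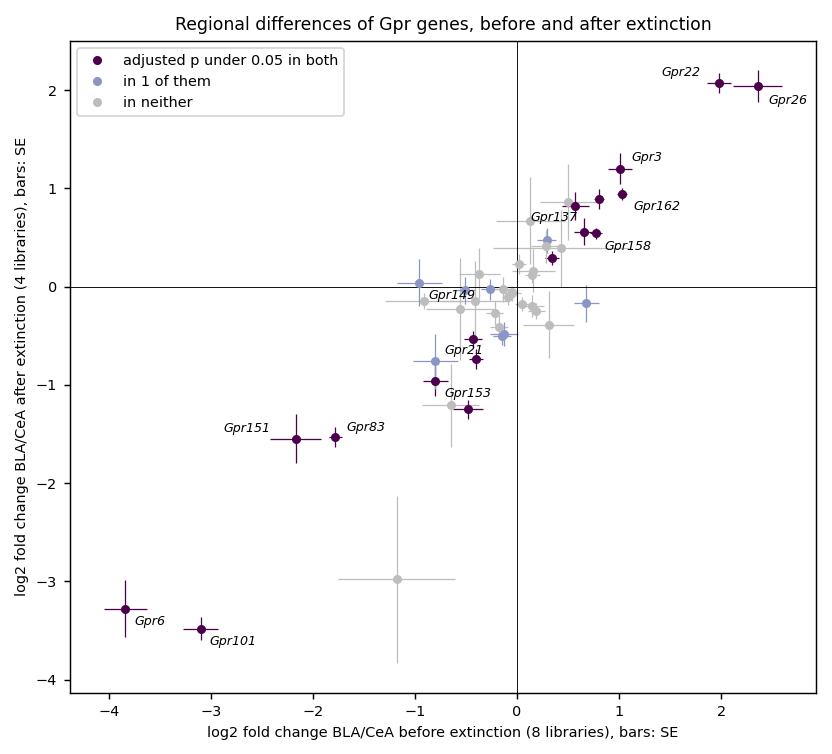
Log2 fold changes BLA/CeA of the described genes before extinction (x axis, 8 libraries) and after extinction (y axis, 4 libraries), with bars of 1 SE in each direction. Dark points passed an adjusted p of 0.05 in both fits and lie on the same side of 0 in both, among them Gpr6 (−3.84 and −3.28) and Gpr22 (1.98 and 2.07).

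To show what lies in front of genes that separated the regions, the RefSeq promoter windows (build GRCm38.p6, 250 bases before to 50 after the start) are printed for Gpr6, Gpr101 and Gpr83, lower in BLA, and for Gpr22, higher in BLA. The windows were chr10:41072241-41072540 on the minus strand for Gpr6, chrX:57503708-57504007 on the minus strand for Gpr101, chr9:14859960-14860259 on the plus strand for Gpr83 and chr12:31713834-31714133 on the minus strand for Gpr22, written in the direction of transcription. Capitals mark the motifs searched on both strands: the cyclic AMP response element TGACGTCA, its half-site TGACG, the GC box GGGCGG and the TATA box TATAAA, where the half-site lies within the full element.
Gpr6: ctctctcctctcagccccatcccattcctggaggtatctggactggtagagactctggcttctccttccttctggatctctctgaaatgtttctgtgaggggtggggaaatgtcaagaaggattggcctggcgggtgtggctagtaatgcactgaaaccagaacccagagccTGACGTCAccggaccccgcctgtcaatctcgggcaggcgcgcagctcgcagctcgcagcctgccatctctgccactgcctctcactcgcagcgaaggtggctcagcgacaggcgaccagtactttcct
Gpr101: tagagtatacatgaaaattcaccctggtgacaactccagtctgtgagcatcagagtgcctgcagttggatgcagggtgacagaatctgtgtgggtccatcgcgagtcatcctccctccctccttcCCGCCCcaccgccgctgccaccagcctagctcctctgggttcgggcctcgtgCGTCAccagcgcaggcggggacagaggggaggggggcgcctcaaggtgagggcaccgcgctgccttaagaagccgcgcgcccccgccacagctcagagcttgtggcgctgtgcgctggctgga
Gpr83: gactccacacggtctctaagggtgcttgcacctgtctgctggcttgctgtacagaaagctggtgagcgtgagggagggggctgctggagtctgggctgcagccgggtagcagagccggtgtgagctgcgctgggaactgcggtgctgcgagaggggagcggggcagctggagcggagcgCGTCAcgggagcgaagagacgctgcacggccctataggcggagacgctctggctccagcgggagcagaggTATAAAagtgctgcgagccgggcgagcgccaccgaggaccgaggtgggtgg
Gpr22: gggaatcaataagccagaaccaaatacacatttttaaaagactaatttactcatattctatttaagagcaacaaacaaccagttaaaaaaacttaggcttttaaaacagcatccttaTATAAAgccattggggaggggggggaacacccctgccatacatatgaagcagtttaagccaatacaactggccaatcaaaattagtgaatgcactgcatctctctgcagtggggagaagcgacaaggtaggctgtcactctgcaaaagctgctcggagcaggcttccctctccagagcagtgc

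Gpr6 held the full TGACGTCA element, which 1.79% of 32851 promoter windows in the RefSeq table hold and which was in 1 of 65 windows of the 49 receptor genes matched there. Gpr101 and Gpr83 held the half-site on the strand complementary to the one printed. The half-site was in 29.2% of the receptor windows and 20.8% of all windows, the GC box in 38.5% and 35.7%, and the TATA box in 10.8% and 13.6%. Gpr22, whose window had 43% GC against 58.7% to 67% in the other 3, held the letters TATAAA, as did Gpr83. Distance from the start was not part of the search. These matches are descriptions of letters in a window and not of bound factors. In the deposited tables Gpr6 is a single transcript on chromosome 10 from 41070493 to 41071584, which ends short of the RefSeq start.

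After extinction the regional pattern was similar. Of 52 genes tested, 9 were higher and 10 lower in BLA at an adjusted p under 0.05 by edgeR, 36.5% of them against 36.3% of all 15996 genes, of which 18.8% were higher and 17.5% lower. Of these 19 genes 17 were among the earlier calls, with matching signs throughout, which is 89.5% of the calls after and 70.8% of the 24 calls before. Of the 23 genes called before and tested after, 21 kept their sign, the exceptions being Gpr149 (0.04 ± 0.24 after) and Gpr63 (−0.17 ± 0.19 after). Such overlaps and kept signs were not counted over all genes. Gpr45, with 2.7 and 2.74 FPKM in the S1 and B6 BLA libraries and 4.08 and 4.14 FPKM in those of CeA (−0.5 ± 0.09), and Gpr52, with 11.6 and 8.53 FPKM in BLA and 15.1 and 14.5 FPKM in CeA (−0.48 ± 0.12), were called after extinction only, and whether their difference changed between the tables was not tested.

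The largest differences after extinction were again those of Gpr101, with 1.85 and 1.29 FPKM in the S1 and B6 BLA libraries and 19.3 and 17.8 FPKM in those of CeA (−3.48 ± 0.12, edgeR adjusted p = 0.000651), and of Gpr6, with 4.44 and 1.72 FPKM in BLA and 32.4 and 27.6 FPKM in CeA (−3.28 ± 0.29). Gpr22 had 18.4 and 19.4 FPKM in BLA and 5.22 and 4.45 FPKM in CeA (2.07 ± 0.1), and Gpr26 had 2.86 and 2.85 FPKM in BLA and 0.683 and 0.802 FPKM in CeA (2.04 ± 0.16). These 4 genes were apart in both strains. Gpr37 (0.56 ± 0.14) and Gpr85 (0.29 ± 0.07) had adjusted p of 0.0409 and 0.0414 by edgeR, and without the filter on low counts both missed the threshold, at 0.0583 and 0.0516, as did Gpr85 with DESeq2's test, at 0.0727. Gpr52, at 0.0434 by edgeR, likewise missed it without the filter, at 0.0597, and with DESeq2's test, at 0.0807. Only 1 residual degree of freedom was left among these 4 libraries.

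Genes of G proteins, their receptor kinases, arrestins and RGS proteins were set beside the receptors as a list of 53, of which 52 were tested. In the regional fit of naive and FC libraries 18 were higher in BLA, against 23.2% of all genes, and 20 lower, against 23.4%. The list was drawn up with earlier results of these data known, and it shares Rgs9 with the striatal markers. Its larger share of calls is therefore a description only. The median log2 fold change was 0.07 over the list and −0.01 over all genes. Gnal, the Gs-like subunit that serves dopamine receptors in striatum, was lower in BLA (−1.59 ± 0.07), as were its partner Gng7 (−2.01 ± 0.09), Rgs14 (−1.29 ± 0.07) and Rgs2 (−1.17 ± 0.12). Rgs12 (1.67 ± 0.07), Gng13 (1.17 ± 0.13) and Rgs7, the binding partner of Gpr158 (0.57 ± 0.07), were higher. After extinction 12 were higher, against 18.8% of all genes, and 16 lower, against 17.5%.

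The strain comparison is the one the study was built for. Before extinction, 3 receptor genes were lower in S1 than in B6, Gpr4, Gpr3 and Gpr180, and 3 were higher, Gpr165, Gpr63 and Gpr158. That is 11.5% of the 52 tested, against 22.8% of all 16274 genes, of which 12.4% were higher and 10.4% lower (edgeR's quasi-likelihood F test, adjusted p under 0.05). The median log2 fold change was −0.01 over the 52 genes and 0 over all genes. None of the 6 calls held in every fit that left out 1 library.

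Each called gene was in the same direction in 4 of 4 matched pairs in normalised counts. These pairs are the libraries that gave the calls, so their agreement adds no support. Receptors that were not called, such as Gpr27 and Gpr137, also had 4 of 4, and such agreement was not counted over all genes. In the naive BLA, FC BLA, naive CeA and FC CeA libraries, Gpr4, a proton sensor of endothelial cells, had 0.888, 1.11, 0.731 and 0.797 FPKM in S1 and 1.33, 1.22, 1.27 and 1.33 FPKM in B6 (−0.51 ± 0.14, edgeR adjusted p = 0.037). In the same order of libraries, Gpr3 had 1.89, 2.01, 0.94 and 1.11 FPKM in S1 and 2.48, 2.87, 1.19 and 1.72 FPKM in B6 (−0.43 ± 0.12, edgeR adjusted p = 0.0372). Gpr180, on chromosome 14 from 118137127 to 118164232 (mm10), had 7.1, 7.51, 5.32 and 5.63 FPKM in S1 and 8.3, 8.36, 8.69 and 8.38 FPKM in B6 (−0.37 ± 0.09, edgeR adjusted p = 0.0276). Gpr4 and Gpr180 did not overlap between the strains, and Gpr180 was lowest in both S1 CeA libraries. Endothelial markers were lower in S1 for 2 of 6, with summed levels of 122.8 to 144.3 CPM in S1 and 152.1 to 166.3 CPM in B6, and their part in the value of Gpr4 was not tested.

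On the higher side, Gpr165, on chromosome X from 96713468 to 96719388, had 3.41, 2.65, 4.45 and 5.74 FPKM in S1 and 2.5, 2.13, 2.82 and 3.41 FPKM in B6 (0.59 ± 0.15, edgeR adjusted p = 0.0252). Gpr63 had 2.32, 2.16, 1.55 and 1.56 FPKM in S1 and 1.99, 1.48, 1.23 and 1.01 FPKM in B6 (0.47 ± 0.12, edgeR adjusted p = 0.0281). Gpr158 had 26.7, 27, 15.3 and 16.7 FPKM in S1 and 22.1, 22.4, 15.7 and 14.2 FPKM in B6 (0.23 ± 0.06, edgeR adjusted p = 0.0309). For Gpr158 the FPKM of the naive CeA pair ran against the call, and limma on log2(FPKM + 0.1) gave 0.19 (limma adjusted p = 0.0748, with 0.00657 to 0.119 over all its alternatives).

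The number of strain calls changed in fits that left out 1 library, where the share of all genes called was not compared. This number was taken over all receptors tested, so that receptors outside the 6 could enter. It was 0 without the B6 FC CeA library, where 8 receptors had an unadjusted p under 0.05, 1 without S1 naive CeA or S1 FC CeA, 2 without B6 FC BLA and 7 without B6 naive BLA, and it was 3 when S1 naive BLA, B6 naive CeA or S1 FC BLA was left out. Without S1 FC CeA all 6 lost their call, and the 7 without B6 naive BLA lacked Gpr3 and Gpr4 and held Gpr161. Gpr3 lost its call in 7 of these 8 fits and with DESeq2's test, Gpr63 in 7, Gpr4 and Gpr165 in 6, Gpr158 in 5 and Gpr180 in 4, always with the sign kept. Gpr4 also missed the threshold when the 4 matched pairs were blocks in the fit (edgeR adjusted p = 0.0502).

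**Figure D3:**
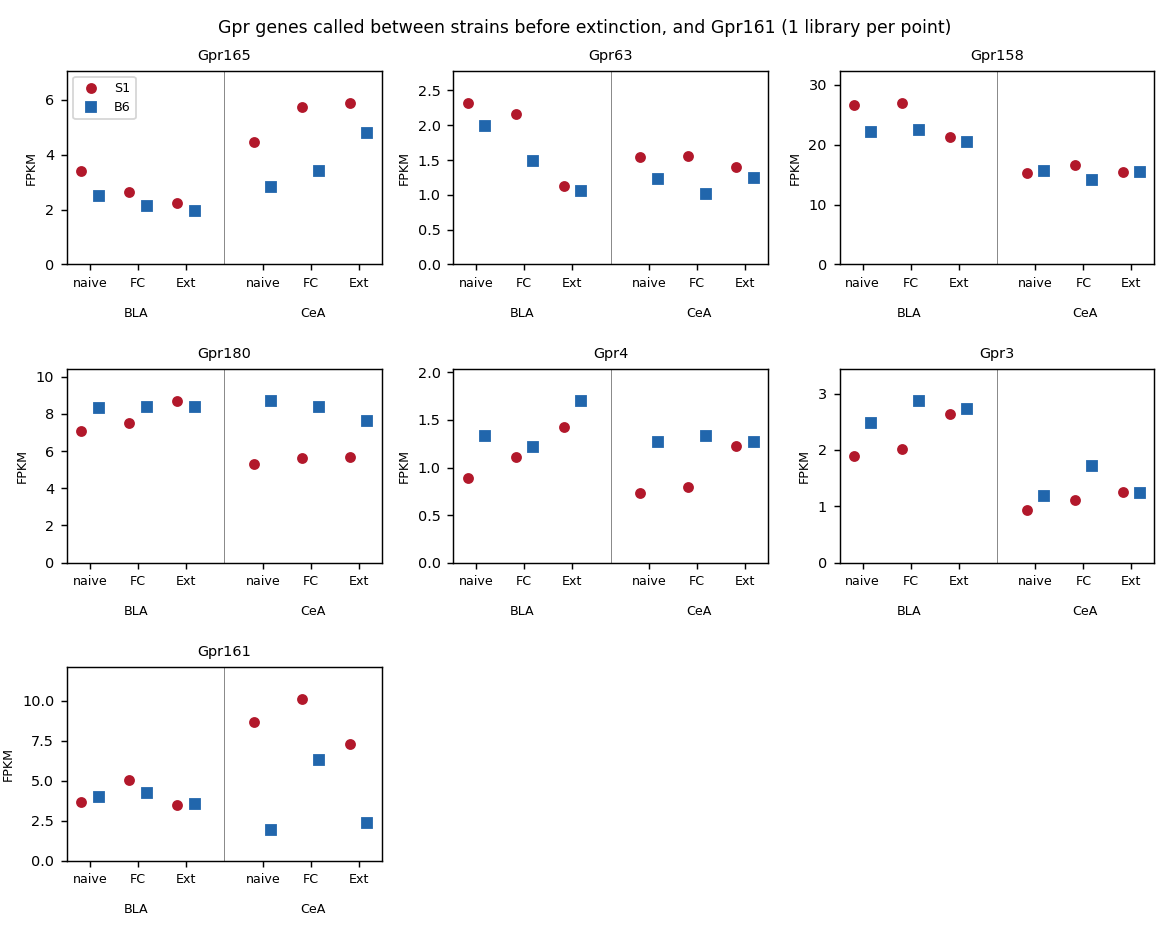
FPKM in each library (y axes start at 0) by condition and region, with S1 as circles left of B6 as squares, for the 6 genes called between the strains and for Gpr161. S1 points lie above B6 points in all 6 pairs for Gpr165, and the Gpr161 gap is in the CeA panels.

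Without overlap between all 4 S1 and all 4 B6 libraries in CPM, 1 of 52 genes lay above, Gpr155, against 7.71% of all genes, and 3 lay below, Gpr180, Gpr160 and Gpr4, against 7.89%. In FPKM Gpr155 did overlap, with 16.4 to 18 FPKM in S1 and 14.8 to 18.1 FPKM in B6. It did not pass the test (0.09 ± 0.05, edgeR adjusted p = 0.279). Gpr160, with 0.146, 0.0554, 0 and 0.134 FPKM in S1 and 0.441, 0.294, 0.329 and 0.255 FPKM in B6, did not pass the test (−1.79 ± 0.67, edgeR adjusted p = 0.0921). Microglial markers were lower in S1 for 7 of 10 and oligodendrocyte markers for 8 of 10. Receptors known from those cells did not pass, with −0.14 ± 0.07 for Gpr34 (edgeR adjusted p = 0.205), −0.29 ± 0.13 for Gpr62, −0.27 ± 0.11 for Gpr17 and −0.05 ± 0.1 for Gpr37. In the list of G proteins and regulators 5 of 52 were higher in S1, against 12.4% of all genes, among them Gnaq (0.29 ± 0.06) and the receptor kinase gene Grk5 (0.39 ± 0.11). In the same list 3 were lower, against 10.4% of all genes, among them Gng5 (−0.63 ± 0.1).

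After extinction, no receptor passed the strain test by edgeR, 0 of 52 against 1.64% of all genes, with 4 of the 52 and 15% of all genes at an unadjusted p under 0.05. DESeq2's test also called 0 of the 52. All 6 genes called before extinction kept their sign after it, but the log2 fold change was −0.02 ± 0.16 for Gpr3 and 0.03 ± 0.06 for Gpr158. Gpr3 and Gpr180 had that sign in 1 of 2 pairs, and Gpr165, Gpr63, Gpr4 and Gpr158 in 2 of 2. Kept signs were not counted over all genes. The smallest p was that of Gpr19, with 11.8 and 13.4 FPKM in the S1 BLA and CeA libraries and 9.08 and 11 FPKM in those of B6 (0.35 ± 0.08, edgeR adjusted p = 0.17). Gpr160 had 0.211 and 0.163 FPKM in S1 and 0.541 and 0.581 FPKM in B6 (−1.45 ± 0.39, edgeR adjusted p = 0.209), lower in S1 in both regions as in the earlier libraries. Gpr101 had 1.85 and 19.3 FPKM in S1 and 1.29 and 17.8 FPKM in B6 (0.3 ± 0.11, edgeR adjusted p = 0.329).

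In the deposited counts per transcript, Gpr19, a neuronal orphan, was the only receptor with several transcripts whose transcript shares did not overlap between the 6 S1 and the 6 B6 libraries, 1 of 10 tested in this way, against 3.37% of 4652 genes. NR_074084, a non-coding transcript of Gpr19, had 4, 141 and 259 counts in the S1 naive, FC and Ext BLA libraries. It had 191, 47 and 131 counts in those of S1 CeA, against 0 or 1 count in each of the 6 B6 libraries. Its observed share of the counts of Gpr19 was 1.83% to 44.6% in S1 and 0% to 0.134% in B6. The naive BLA pair is the least certain, since the S1 share of 1.83% has a 95% Wilson interval of 0.713 to 4.6% and the 0 of 309 counts in B6 allows a share of up to 0.971%, so that these ranges overlap. In the other 5 S1 libraries the share was 10.3% to 44.6%. Another non-coding transcript of Gpr19, NR_072990, was counted in every library of both strains, with shares of 1.33% to 13.9% in S1 and 4.34% to 21.3% in B6. Shares of single transcripts could swing widely within a strain, as for NM_001313748 of Gpr173, with 0% to 90.7% in S1 and in B6 alike. Gpr19 as a whole did not pass the strain test before extinction (−0.49 ± 0.38, edgeR adjusted p = 0.376). It varied widely within a strain and region, with 2.8, 3.84 and 11.8 FPKM in S1 BLA and 11.7, 3.7 and 13.4 FPKM in S1 CeA, over naive, FC and Ext, and 3.26, 7.72 and 9.08 FPKM in B6 BLA and 9.44, 10.2 and 11 FPKM in B6 CeA.

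**Figure D4:**
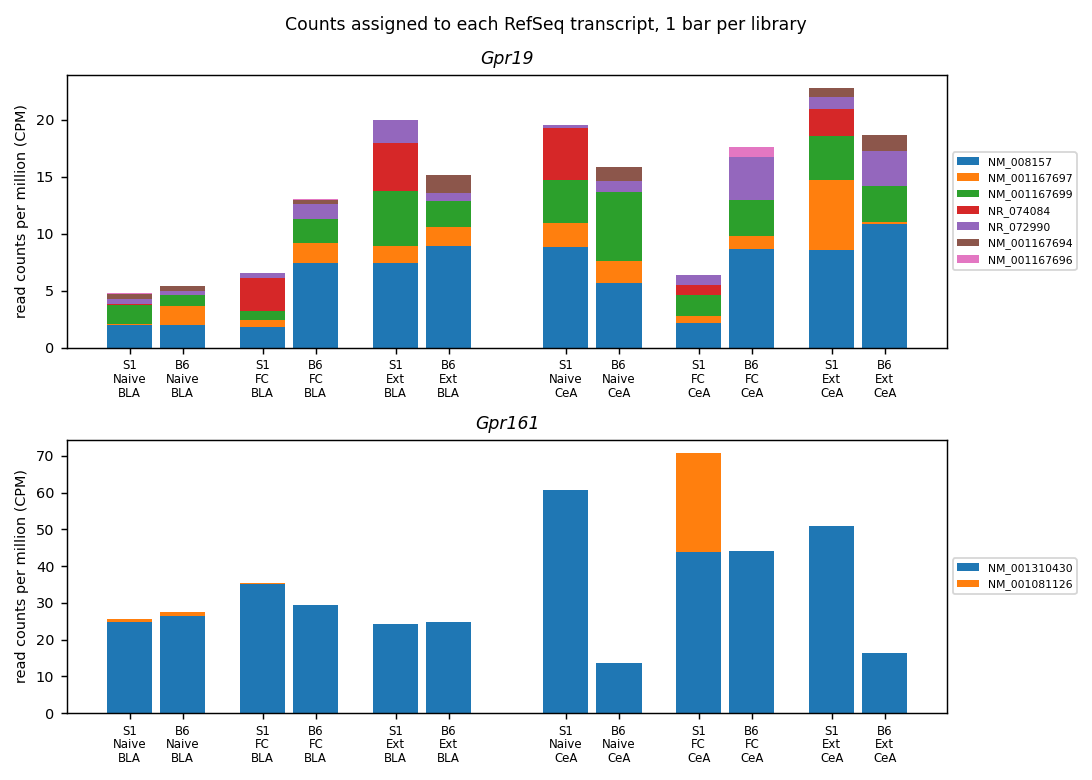
CPM assigned to each RefSeq transcript of Gpr19 and Gpr161, 1 stacked bar per library with S1 left of B6; transcripts under 0.3 CPM in every library are left out. NR_074084 of Gpr19 is visible in S1 bars only and NM_001081126 of Gpr161 fills 38% of the S1 FC CeA bar.

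Whether a strain gap differed between the regions was tested as an interaction, and no receptor passed, 0 of 52 against 0.0307% of all genes by edgeR, with 8 of the 52 and 8.63% of all genes at an unadjusted p under 0.05. DESeq2's test called none of the 52 either. The smallest p was that of Gpr52, with 0.64 ± 0.17 for the gap (S1 minus B6) in BLA minus that in CeA (edgeR adjusted p = 0.477, with 0.132 to 0.957 over the alternatives). Its naive and FC levels were higher in S1 in BLA, 12.8 and 12 FPKM against 8.61 and 9.07 FPKM in B6, and lower in S1 in CeA, 12.7 and 10.4 FPKM against 14.6 and 11.8 FPKM in B6. The summed striatal markers moved alike, with 476.6 and 617.6 CPM in S1 BLA against 426.3 and 429.4 CPM in B6 BLA, and 3421 and 2735 CPM in S1 CeA against 3756 and 3756 CPM in B6 CeA; their part was not tested. Gpr180 (0.41 ± 0.12) and Gpr37 (0.45 ± 0.14) came next, both with an edgeR adjusted p of 0.518.

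Gpr161, a receptor of the primary cilium that restrains Hedgehog signalling, passed this interaction test in a single alternative, without the B6 FC CeA library (−2.12 ± 0.19, edgeR adjusted p = 0.0375, with 0.0375 to 0.958 over the alternatives). With all 8 libraries it was −1.31 ± 0.49 (edgeR adjusted p = 0.54). Its levels were 8.69, 10.1 and 7.26 FPKM in S1 CeA over naive, FC and Ext and 1.94, 6.28 and 2.34 FPKM in B6 CeA, against 3.64, 5.04 and 3.47 FPKM in S1 BLA and 3.95, 4.21 and 3.53 FPKM in B6 BLA. S1 was higher in all 3 CeA pairs, and the BLA pairs lay close together. In the S1 FC CeA library 1416 of 3727 counts went to the transcript NM_001081126, 38% (95% Wilson interval 36.4 to 39.6%), which had 0 to 72 counts in each of the other 11 libraries. Without that transcript the FC CeA pair was level, with 43.9 CPM of NM_001310430 in S1 and 44 CPM in B6. The naive and Ext CeA pairs had 60.8 and 50.9 CPM of NM_001310430 in S1 and 13.6 and 16.4 CPM in B6. Gpr161 was singled out after its values were seen.

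Fear conditioning left no receptor past the threshold. In FC against naive mice, 0 of 52 were called, as were 0% of all 16274 genes by edgeR, with 3 receptors and 3.51% of all genes at an unadjusted p under 0.05. DESeq2's test called 21 genes and no receptor. The smallest p belonged to Gpr37, with 12.3, 10.6, 7.37 and 9.37 FPKM in the FC libraries (S1 BLA, B6 BLA, S1 CeA, B6 CeA) and 15.3, 14.4, 8.47 and 10.7 FPKM in the naive ones (−0.29 ± 0.1, edgeR adjusted p = 0.999). It was lower in 4 of 4 pairs of the same libraries, as were Gpr182 and Gpr12, and such agreement was not counted over all genes. Gpr85 (0.2 ± 0.07) and Gpr34 (−0.18 ± 0.07) came next, also with an edgeR adjusted p of 0.999. The interaction of conditioning with region called 0 of 52 against 0.0184% of all genes by edgeR, with 4 receptors and 5.95% of all genes at an unadjusted p under 0.05. Its smallest p-values were those of Gpr165 (−0.64 ± 0.2), Gpr17 (−0.48 ± 0.15) and Gpr19 (1.56 ± 0.54), all with an edgeR adjusted p of 0.745, and DESeq2's test called 0 receptors.

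The extinction libraries were deposited in a separate table, so condition and table cannot be told apart, and the levels are given side by side without a test. Gpr26 was the only receptor whose extinction libraries lay below all earlier libraries in both regions, 1 of 51 against 2.05% of all genes. It had 8.78, 8.25 and 2.86 FPKM in S1 BLA over naive, FC and Ext and 7.82, 5.77 and 2.85 FPKM in B6 BLA. In CeA it had 1.27, 2.65 and 0.683 FPKM in S1 and 1.53, 1 and 0.802 FPKM in B6. Gpr162 and Gpr6 lay above all earlier libraries in both regions, 2 of 51 against 4.32% of all genes. Gpr162 had 86.2 and 83.2 FPKM in the S1 and B6 Ext BLA libraries against 71.8 to 75.1 FPKM earlier, and 46.4 and 48.1 FPKM in Ext CeA against 37.1 to 41.8 FPKM earlier. For Gpr6, the highest BLA value, 4.44 FPKM in S1 Ext, was in the BLA library with the most striatal marker counts.

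**Figure D5:**
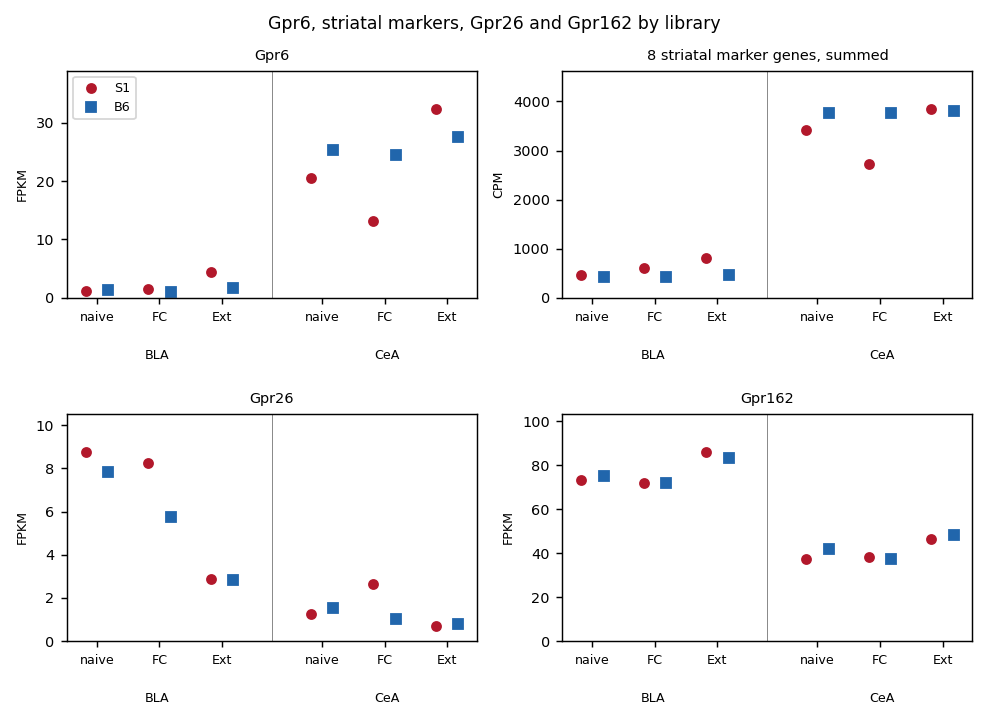
Gpr6, Gpr26 and Gpr162 in FPKM and 8 striatal markers summed in CPM, by condition and region, with S1 as circles left of B6 as squares and y axes from 0. The S1 Ext BLA library is the highest of the BLA libraries for Gpr6 (4.44 FPKM) and the markers (813.5 CPM), and Gpr26 is lowest and Gpr162 highest in the Ext libraries of each region.

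Of the described genes 7 share exon bases with a protein-coding gene in the GENCODE annotation, 5 on the opposite strand (Gpr137 with Bad, Gpr17 with Lims2, Gpr89 with Gja5, Gpr62 with Pcbp4 and Gpr3 with Cd164l2) and 2 on the same strand (Gpr75 with Asb3 and Gpr21 with Rabgap1), and their counts are uncertain. For the first 5 it is not known whether counting used strand, and for the other 2 strand could not separate the counts. Pcbp4 averaged 142 CPM and was higher in BLA as well, with 137 to 152 CPM in the 4 BLA libraries before extinction and 113 to 134 CPM in those of CeA, and its part in the regional value of Gpr62 was not tested.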

How the data were processed

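RNA was extracted with RNeasy columns and stranded mRNA libraries were made with a TruSeq kit, per the labels' protocols. The submitters' processing notes name StringTie, and the files name mm10, a build derived from C57BL/6J. Aligner, versions and use of strand in counting were not given in the sources used here; strand matters for overlapping genes. The authors deposited whole-number read counts and FPKM (scaled for transcript length and library size) per gene, and counts with lengths per transcript, in 1 pair of tables for the 8 naive and FC libraries and another for the 4 Ext libraries, per the file headers. A count column whose name fitted no single sample, 1 in all, was not used. Gene counts were therefore sums over 36779 transcripts per library, which differed from the authors' gene counts for 73 to 95 genes and by at most 0.0511% of the total in the 11 libraries that could be compared.

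Tests of counts used edgeR 4.0.16 under R 4.3.3 (quasi-likelihood F test, TMM scaling, filterByExpr, Benjamini-Hochberg adjustment over all genes tested, threshold 0.05). Strain, region and condition were terms of an additive model of 8 libraries (4 residual degrees of freedom; 3 with an interaction), and strain and region of a model of the 4 Ext libraries (1 degree of freedom). Nothing says that libraries came from separate mice. SE is the log2 fold change divided by the root of F. Gene CPM values use TMM scaling within each fit, and transcript CPM use total counts. Alternatives were DESeq2 1.42.0, its size factors, no filter on low counts, each library left out, matched pairs as blocks, and limma 3.58.1 on log2(FPKM + 0.1) and log2(FPKM + 1). Transcript shares were compared where a gene had at least 50 counts in every library. The fits were tested on simulated data. Of the genes that match the symbol rule, 4 are not reported here. The members and lists were chosen with earlier results of these data known. Genes named by rule were the 10 highest by mean FPKM and, per comparison, up to 10 called in each direction with the largest change. Where none passed, the 3 with the smallest p-values were named. For some named genes the text gives a mean, a range or a fold change and not the value of every library.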

Additional observations from a re-analysis of the deposited data

How the results depend on the processing

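Among the genes named by comparison, 441 gene-by-alternative values kept their direction and their side of the threshold, 49 lost the call and 0 reversed. The count of strain calls before extinction was 0 to 7 with 1 library left out, against 6 with all. It covers all receptors tested, not only those 6. Under the other alternatives it was 6 to 7, where both limma fits had 2 higher and 5 lower against 3 and 3. After extinction it was 0 under every alternative run. The strain-by-region count was 0 to 1 with 1 library left out. Regional counts were 20 to 24 before and 16 to 21 after extinction. Conditioning called 0 receptors under every alternative run, and its interaction with region likewise. A minimum of 0.5 FPKM would leave 41 of the 48 genes. The causes of these changes were not tested, though a fit without a library has fewer samples. Leaving out Ext libraries was not run, since no residual degree of freedom would be left. No paired analysis by replicate number was possible because each group has a single library, numbered 1, so that no replicate numbers pair the samples. Libraries matched by the other factors could still be blocked in pairs. That fit, chosen after seeing the data, left 3 residual degrees of freedom and called 6 receptors by strain, 24 by region and 0 by conditioning, as the additive model did, but Gpr4 missed the strain threshold and Gpr17 passed it. Low counts, at most 30 per library, limit what can be said of the 18 genes below the minimum.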
